A study of Mus musculus with 4 samples.

Results

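The alternative activation genes described here are 10 genes of the interleukin 4 pathway and of the macrophage state that interleukin 4 induces: Il4ra, Klf4, Irf4, Arg1, Arg2, Tgm2, Clec10a, Mgl2, Chil3 and Retnla. They were taken by symbol from the platform annotation of an Affymetrix whole-transcript array, where each had 1 probe set, out of 22180 genes with a probe set of a single symbol. Of the 10 genes, 7 had a mean level over the arrays at or above the filter used for all genes, the 40th percentile or a log2 value of 2.44, and the other 3, Mgl2, Chil3 and Retnla, lay below it.

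The samples were cultured mouse bone marrow-derived macrophages, macrophages grown from marrow cells over 7 days in medium with 15% L929-conditioned medium. There were 4 groups with 1 array each: Hilpda knockout after 24 h, wild type after 24 h, knockout after 12 h and wild type after 12 h with fatty acids. Knockout cells came from HilpdaΔMΦ mice and wild-type cells from Hilpdaflox/flox littermates, aged 8 to 12 weeks. The labels do not name the Cre driver. All 4 groups received 600 µM of a fatty acid mixture bound to albumin, with 1 part of palmitate to 2 parts of oleate, and no group received interleukin 4 according to the labels. Each array received RNA pooled from 3 samples, so there was no replicate error within a group and a difference between 2 arrays carries no test.

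Interleukin 4 and interleukin 13 bind receptors that contain the alpha chain encoded by Il4ra, and the receptor's Janus kinases activate the transcription factor STAT6. In mouse macrophages STAT6 acts with factors such as KLF4, IRF4 and PPARγ on a set of target genes, among them Arg1, Chil3, Retnla, Mgl2 and Clec10a. The resulting state, called alternative activation, is known from helminth infection, wound repair and adipose tissue.

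Each level below is an RMA value on the log2 scale, in which 1 unit is a 2-fold step, and each genotype difference is knockout minus wild type at the same time. As a measure of background signal, 1405 olfactory, vomeronasal and trace amine receptor genes were used, most of which were taken to be silent in macrophages. The upper end of their central 95% lay between 2.90 and 2.99 in the 4 arrays. The knockout allele was checked first: Hilpda, a lipid droplet protein that inhibits adipose triglyceride lipase, was at 5.27 in knockout and 5.47 in wild type at 24 h, and at 5.41 in knockout and 5.93 in wild type at 12 h. It was therefore lower in knockout at each time, but by less than 1.5-fold. The difference at 24 h was -0.20, inside the central 95% of all genes past the filter (-0.66 to 0.62), so the check is weak at that time. At 12 h it was -0.51, just outside that range (-0.50 to 0.49). The deleted exons are not named in the labels, so the place of the probes relative to the deletion is unknown. All 10 macrophage markers, such as Adgre1 and Csf1r, lay above the receptor genes in every array. Markers of neutrophils (10 genes) and of mast cells and basophils (8 genes) lay within or below their central 95%, with no marker above its upper end in any array.

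RefSeq promoter windows of assembly GRCm38.p6, from 250 bases before to 50 bases after the annotated start, were at hand for 6 of the 10 genes (Il4ra, Klf4, Irf4, Mgl2, Chil3 and Retnla). Of these, 4 are shown because they belong to the extremes of the results: Il4ra and Klf4 differed between the genotypes by more than 1.5-fold at 24 h, and Chil3 and Retnla stayed at background. Il4ra lies at chr7:125552021-125552320, plus strand, Klf4 at chr4:55532426-55532725, minus strand, Chil3 at chr3:106167515-106167814, minus strand and Retnla at chr16:48842359-48842658, plus strand. Each is written 5′ to 3′ on the gene's own strand, and capitals mark every match to the motifs named after the sequences.
Il4ra: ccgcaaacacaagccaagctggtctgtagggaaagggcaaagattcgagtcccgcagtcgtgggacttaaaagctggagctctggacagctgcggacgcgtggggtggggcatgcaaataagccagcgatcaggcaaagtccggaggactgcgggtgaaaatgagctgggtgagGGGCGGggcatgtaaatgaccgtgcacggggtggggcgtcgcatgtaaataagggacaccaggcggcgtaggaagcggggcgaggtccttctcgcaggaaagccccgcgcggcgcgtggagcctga
Klf4: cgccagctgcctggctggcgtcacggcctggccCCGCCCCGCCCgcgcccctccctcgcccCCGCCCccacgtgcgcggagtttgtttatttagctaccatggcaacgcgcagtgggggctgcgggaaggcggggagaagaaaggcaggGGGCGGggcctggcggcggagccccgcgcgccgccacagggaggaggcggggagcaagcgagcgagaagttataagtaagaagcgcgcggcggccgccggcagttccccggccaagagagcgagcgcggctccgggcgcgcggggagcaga
Chil3: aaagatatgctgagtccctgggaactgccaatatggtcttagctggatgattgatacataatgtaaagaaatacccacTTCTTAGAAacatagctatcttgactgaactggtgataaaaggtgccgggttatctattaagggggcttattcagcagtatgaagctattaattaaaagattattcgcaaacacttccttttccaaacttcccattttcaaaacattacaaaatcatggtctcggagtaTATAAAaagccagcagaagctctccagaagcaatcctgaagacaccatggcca
Retnla: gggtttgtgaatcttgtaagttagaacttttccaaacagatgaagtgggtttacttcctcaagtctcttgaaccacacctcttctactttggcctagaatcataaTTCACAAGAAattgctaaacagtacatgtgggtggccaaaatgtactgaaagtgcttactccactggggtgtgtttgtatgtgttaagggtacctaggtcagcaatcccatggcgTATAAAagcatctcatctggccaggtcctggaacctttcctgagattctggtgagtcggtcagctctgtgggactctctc

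The motifs searched on both strands were the STAT6 type TTCNNNNGAA, the shorter STAT type TTCNNNGAA, the GC box GGGCGG and the TATA box TATAAA. Over all 32851 promoter windows of the same length they occurred in 6.95%, 8.30%, 35.7% and 13.6%. Retnla held the STAT6 type, TTCACAAGAA, 145 bases before its start, and a TATA box at 30 bases before it. Chil3 held the shorter STAT type, TTCTTAGAA, at 172 bases before its start. Its TATAAA match began 3 bases before the annotated start and ran across it, unlike that of Retnla. Neither STAT motif was in the windows of the other 4 genes, which says only that these letters are absent there. Klf4 had 4 GC boxes, of which 2 share 1 base, and Il4ra had 1, at 76 bases before its start. The Il4ra and Klf4 windows contained 25 and 40 CG dinucleotides, and those of Chil3 and Retnla 3 and 2, beside a median of 7 over all windows. A match of this kind is a description of the letters and not evidence of binding.

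At 24 h, Il4ra and Klf4 were lower in knockout macrophages by more than 1.5-fold, and none of the 7 genes past the filter was higher by that amount. At 12 h none of the 7 was past 1.5-fold in either direction. At 24 h the calls were thus 2 lower and 0 higher of 7, where 3.5% of all 13354 genes past the filter were lower and 2.97% higher by 1.5-fold. At 12 h they were 0 and 0, where 1.4% of all genes were lower and 1.5% higher. The median genotype difference of the 7 genes was -0.15 at 24 h (2 above 0, 5 below) and -0.04 at 12 h (3 above, 4 below), beside medians of 0.0055 and 0.0022 over all genes past the filter. Of all these genes 49.0% were below 0 at 24 h and 49.4% at 12 h.

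**Figure D1:**
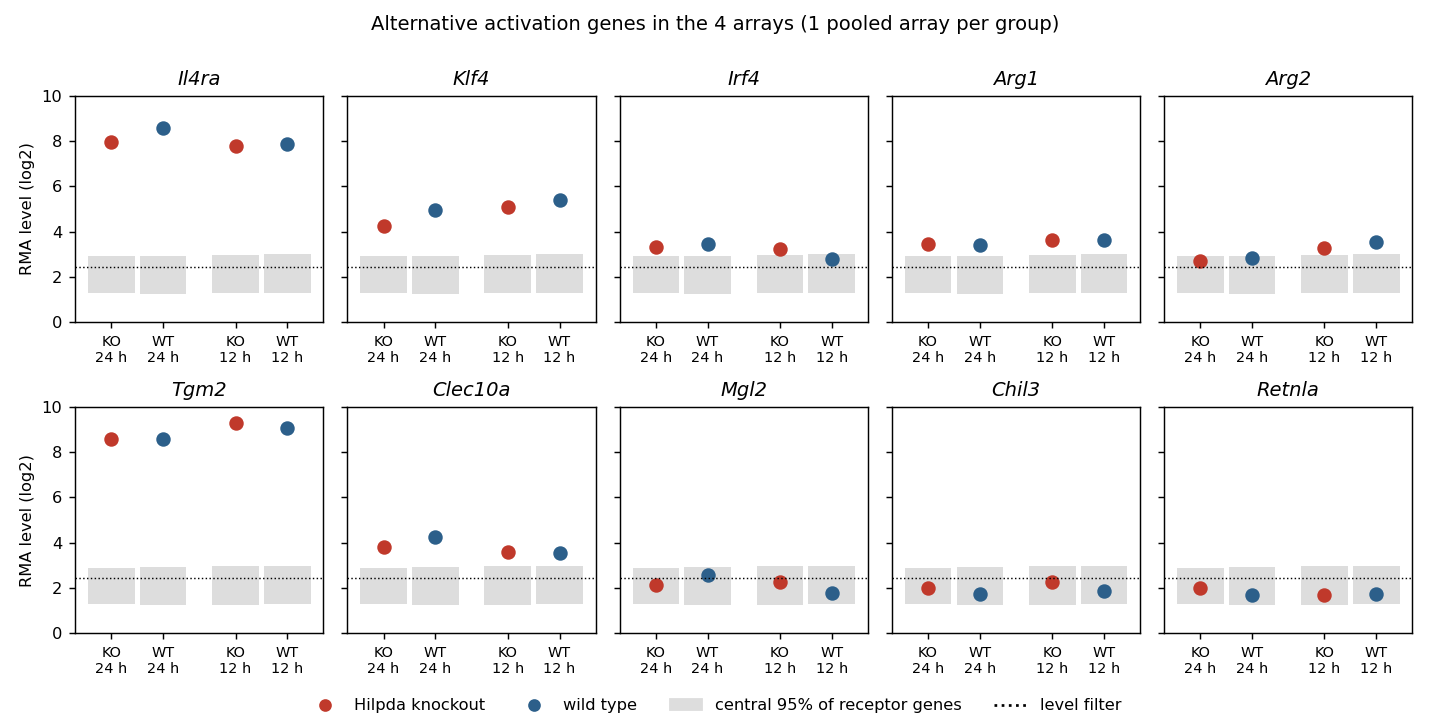
RMA level (log2, vertical axis) of each of the 10 genes in the 4 arrays, with knockout in red and wild type in blue, 1 pooled array per point. Grey boxes give the central 95% of 1405 receptor genes in that array and the dotted line the level filter of 2.44. Il4ra and Tgm2 sit far above the boxes, and Mgl2, Chil3 and Retnla sit inside them in all 4 arrays.

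Il4ra, the receptor chain shared by interleukin 4 and interleukin 13, had a level of 7.94 in knockout and 8.57 in wild type at 24 h, and of 7.76 in knockout and 7.88 in wild type at 12 h. The wild-type array at 24 h stood above the other 3, which lay within 0.17 of each other. The genotype difference was -0.63, or 1.55-fold lower in knockout, at 24 h, and -0.12, or 1.09-fold lower, at 12 h. At 24 h 376 of the 13354 genes were as low or lower, so Il4ra lay just inside the central 95% of genes, which ran from -0.66 to 0.62. Of the receptor genes taken as background, 4.34% had a difference of that size or larger. They were far dimmer than Il4ra, with medians of 1.78 in knockout and 1.73 in wild type at 24 h, so their spread need not be that of a bright gene. Of the 9089 genes past a filter at the 60th percentile, 199 were lower by 1.5-fold at 24 h.

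Il13ra1, which pairs with the Il4ra chain in the type II receptor, was at 5.31 in knockout and 5.81 in wild type at 24 h, and at 4.88 in knockout and 4.94 in wild type at 12 h. Its profile thus resembled that of Il4ra, with a genotype difference of -0.50 at 24 h and -0.06 at 12 h. Stat6, the transcription factor of the pathway, differed by -0.04 and 0.03 at 24 h and 12 h, and Jak1, a kinase bound to the receptor, by -0.11 and 0.12.

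In the list of interleukin 4 receptor and STAT6 signalling, 15 of 22 genes passed the level filter. Of these 15, 2 were lower in knockout by 1.5-fold at 24 h and 0 higher, and at 12 h 0 were past 1.5-fold. The median was -0.12 at 24 h and -0.06 at 12 h. Beside Il4ra the gene past 1.5-fold was Socs3, a feedback inhibitor of cytokine signalling best known downstream of STAT3, at -0.86, with 3.37 in knockout and 4.23 in wild type. The ligand genes Il4 and Il13 were below the filter, with levels of at most 1.90 and 2.38 in any array, and Socs1, a feedback inhibitor that STAT6 can induce, was below it too.

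Klf4, a zinc-finger factor that cooperates with STAT6 in mouse macrophages, was at 4.25 in knockout and 4.96 in wild type at 24 h, and at 5.10 in knockout and 5.40 in wild type at 12 h. The knockout array was the lower at each time, and the knockout array at 24 h was the lowest of the 4. The genotype difference was -0.71, or 1.63-fold lower, at 24 h, and -0.30, or 1.24-fold lower, at 12 h. Klf4 lay outside the central 95% of genes at 24 h, with 266 of 13354 as low or lower. At 12 h it lay inside that range, with 1017 as low or lower. Of the receptor genes, which lay at lower levels than Klf4, 3.06% had a difference as large at 24 h and 23.6% at 12 h.

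Among the KLF family 13 of 17 genes passed the filter, and Klf4 was the single member past 1.5-fold at 24 h. The family's median was -0.02 at 24 h and -0.09 at 12 h. Klf2, a related factor of resting myeloid and endothelial cells, differed by -0.02 at 24 h and -0.07 at 12 h, and Klf6 by 0.02 and 0.12.

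Irf4, a factor of the interferon regulatory family that acts downstream of interleukin 4, was dim. Its level was 3.30 in knockout and 3.45 in wild type at 24 h, and 3.21 in knockout and 2.80 in wild type at 12 h. The wild-type array at 12 h lay within the central 95% of the receptor genes and the other 3 above it. The genotype difference was -0.15 at 24 h and 0.41 at 12 h, under 1.5-fold at each time, and 12.9% of the receptor genes differed by as much as the value at 12 h. In the IRF family 7 of 9 genes were measured and passed the filter, with 0 past 1.5-fold at either time.

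The wider list of factors in alternative activation held 16 genes past the filter, of which 2 were higher and 2 lower in knockout by 1.5-fold at 24 h. The lower ones were Klf4 and Nr4a1, an orphan nuclear receptor, at -0.74, and the higher ones Egr2, an early growth response factor, at 0.72 and Bhlhe40, a helix-loop-helix repressor, at 0.61. At 12 h 0 of the 16 were past 1.5-fold. Pparg, the nuclear receptor of fatty acids, was at 8.63 in knockout and 8.13 in wild type at 24 h and at 8.12 in knockout and 7.90 in wild type at 12 h, differences of 0.49 and 0.22. The list's median was -0.11 at 24 h and -0.03 at 12 h.

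**Figure D2:**
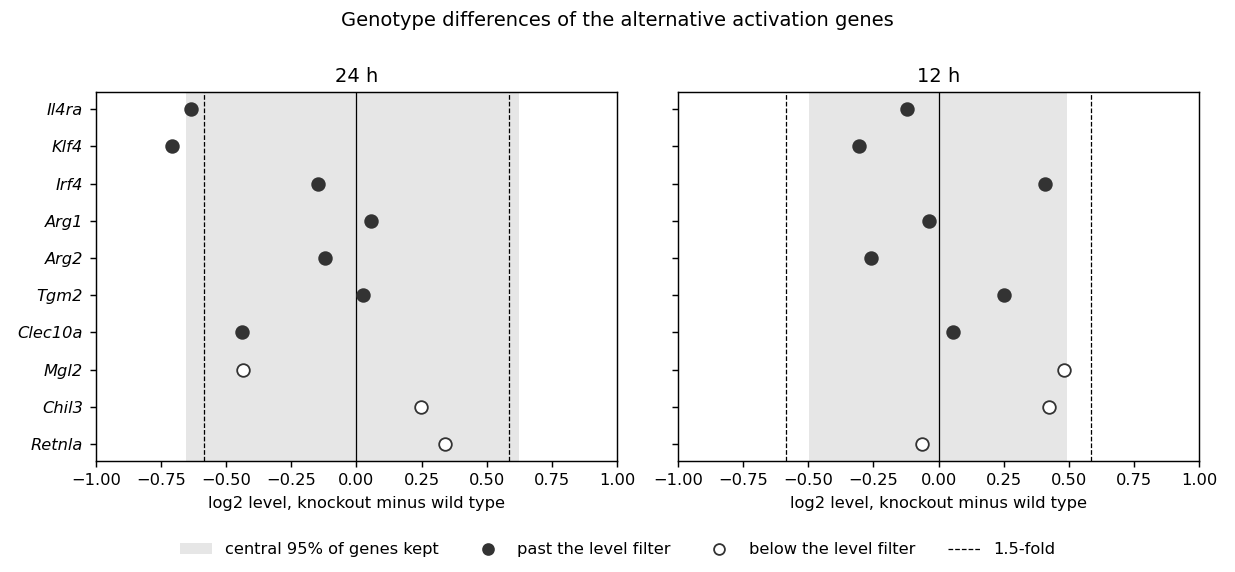
Genotype difference (log2 level, knockout minus wild type, horizontal axis) of each of the 10 genes at 24 h and at 12 h. The grey band is the central 95% of 13354 genes past the level filter, dashed lines are 1.5-fold, and open circles are the 3 genes below the filter. At 24 h Klf4 (-0.71) and Il4ra (-0.63) lie past the lower dashed line, and at 12 h every circle lies between the dashed lines.

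The arginases turn arginine into ornithine and urea, Arg1 in the cytosol and Arg2 in mitochondria. Arg1 was at 3.45 in knockout and 3.40 in wild type at 24 h, and at 3.61 in knockout and 3.64 in wild type at 12 h. The 4 arrays spanned 0.24, the smallest span of the 10 genes, and the genotype differences were 0.05 and -0.04 at 24 h and 12 h. All 4 values lay above the central 95% of the receptor genes, though by less than 1 unit.

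Arg2 was at 2.70 in knockout and 2.82 in wild type at 24 h, and at 3.29 in knockout and 3.55 in wild type at 12 h. The 24 h arrays of both genotypes fell within the central 95% of the receptor genes, and the 12 h arrays lay above it. The genotype difference was -0.12 at 24 h and -0.26 at 12 h, each inside the central 95% of genes.

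Around the arginases, 19 of 25 genes of arginine and polyamine metabolism passed the filter, with 2 higher and 0 lower in knockout by 1.5-fold at 24 h and 0 at 12 h. The higher ones were Slc7a1, a carrier of arginine and other cationic amino acids, and Odc1, ornithine decarboxylase, which starts polyamine synthesis. Slc7a1 was at 5.97 in knockout and 5.18 in wild type at 24 h, a difference of 0.78, and at 5.75 in knockout and 5.23 in wild type at 12 h, a difference of 0.52. Odc1 was at 6.45 in knockout and 5.82 in wild type at 24 h, a difference of 0.62, with 0.15 at 12 h. The list's median was 0.10 at 24 h and -0.02 at 12 h. Nos2, the nitric oxide synthase that competes with arginase for arginine in classical activation, was below the filter with at most 1.99 in any array.

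Tgm2, a transglutaminase that cross-links proteins and marks alternative activation in human and mouse macrophages, had levels of 8.59 in knockout and 8.57 in wild type at 24 h, and of 9.30 in knockout and 9.05 in wild type at 12 h. The genotypes nearly coincided at 24 h, with a difference of 0.02, and at 12 h knockout was higher by 0.25, or 1.19-fold. Both values lay inside the central 95% of genes. Of the 8 transglutaminase family genes 5 passed the filter, and F13a1, the A subunit of coagulation factor XIII, was the 1 past 1.5-fold, lower at 24 h by -0.70 with 3.39 in knockout and 4.09 in wild type.

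Clec10a and Mgl2 encode surface lectins that bind galactose and N-acetylgalactosamine, and in the RefSeq gene order they are neighbours. They are close relatives, so an array can mix their signals, and the probe sequences were not used here. Clec10a was at 3.83 in knockout and 4.27 in wild type at 24 h, and at 3.59 in knockout and 3.54 in wild type at 12 h. As for Il4ra, the wild-type array at 24 h was the highest and the rest lay close together. The genotype difference was -0.44, or 1.36-fold lower, at 24 h, with 901 of 13354 genes as low or lower, and 0.05 at 12 h.

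Mgl2 was at 2.15 in knockout and 2.59 in wild type at 24 h, and at 2.26 in knockout and 1.78 in wild type at 12 h. All 4 values lay within the central 95% of the receptor genes. Its differences of -0.44 and 0.48 were of a size that 13.8% and 8.26% of the receptor genes also had.

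Chil3, a secreted chitinase-like protein also called Ym1, and Retnla, a secreted resistin-like protein also called FIZZ1, are classical marks of interleukin 4 in mouse macrophages. Chil3 was at 2.00 in knockout and 1.75 in wild type at 24 h, and at 2.29 in knockout and 1.86 in wild type at 12 h. Retnla was at 2.02 in knockout and 1.68 in wild type at 24 h, and at 1.67 in knockout and 1.74 in wild type at 12 h. Neither lay above the central 95% of the receptor genes in any array. Their families were equally dim: all 7 chitinase-like genes and all 4 genes of the RELM family lay below the level filter, including Chil4 and Retnlb, which are near relatives. No change of these genes could be measured at this signal.

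Other targets of alternative activation were mixed. Of 34 genes 22 passed the filter, with 1 higher and 1 lower in knockout by 1.5-fold at 24 h and 0 higher and 1 lower at 12 h. At 24 h Il27ra, a cytokine receptor chain, was at 0.72 and Fn1, which encodes fibronectin, at -0.66, and at 12 h Socs2, a feedback inhibitor of cytokine signalling, was at -0.59. Socs2 had 2.36 in knockout and 2.95 in wild type at 12 h, both within the central 95% of the receptor genes, so its difference is one between background values. The median was 0.012 at 24 h and 0.0084 at 12 h. Mrc1, the mannose receptor, was at 9.76 in knockout and 10.31 in wild type at 24 h, and at 7.37 in knockout and 7.11 in wild type at 12 h, differences of -0.55 and 0.26. Cd163, the haemoglobin scavenger receptor, was at 3.99 in knockout and 4.47 in wild type at 24 h, and at 3.81 in knockout and 3.60 in wild type at 12 h, differences of -0.48 and 0.21. Trem2, Igf1 and Folr2, which resident and alternatively activated macrophages share, showed little difference at 24 h, with 0.02 for Trem2, 0.03 for Igf1 and -0.01 for Folr2.

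For comparison, the list of classical activation genes had 11 of 24 genes past the filter, of which 3 were lower and 0 higher in knockout by 1.5-fold at 24 h and 0 at 12 h. Its median was -0.42 at 24 h and -0.03 at 12 h. The lower genes were Il1b at -1.47, Ptgs2, the inducible cyclooxygenase, at -0.84, and Socs3, which is in the signalling list too. For Il1b the knockout level of 2.59 lay within the background, against 4.07 in wild type. Whether the alternative and classical lists differ from each other was not tested.

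**Figure D3:**
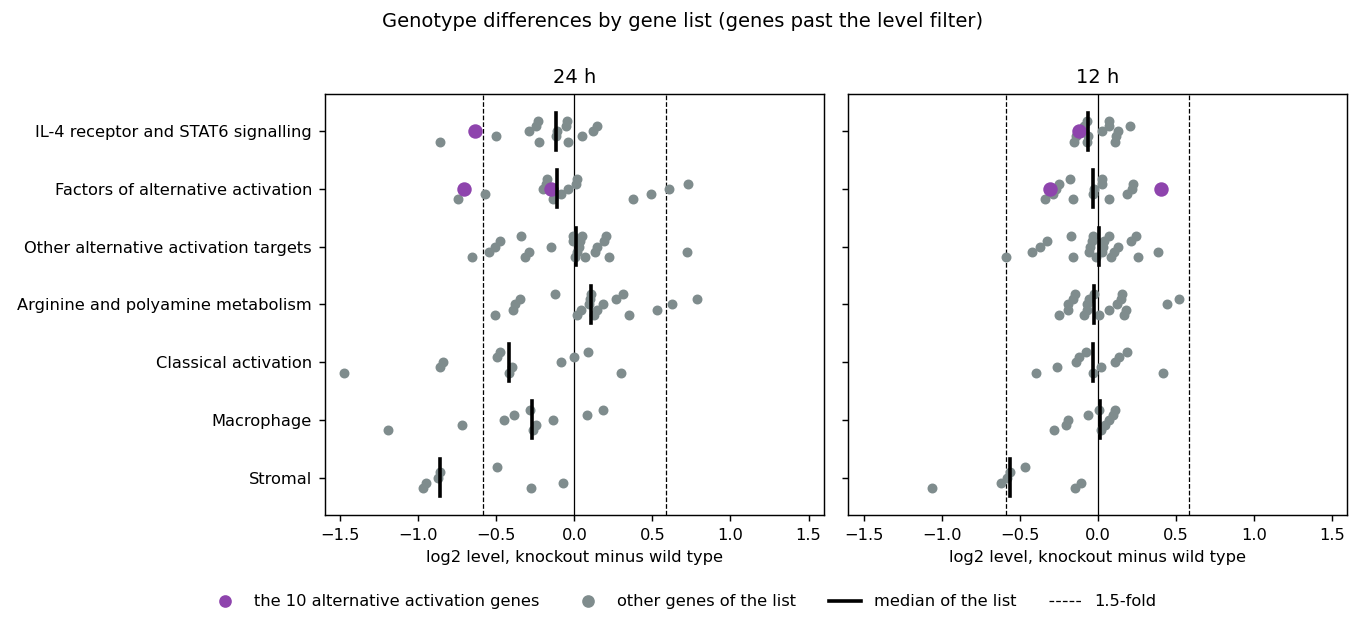
Genotype difference (log2 level, knockout minus wild type, horizontal axis) of the genes past the level filter in 5 pathway lists and 2 marker lists at 24 h and at 12 h. Purple circles are the alternative activation genes, grey circles other genes of the list, black bars the medians and dashed lines 1.5-fold. At 24 h the medians run from -0.86 (stromal markers) to 0.10 (arginine and polyamine metabolism).

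Most stromal, macrophage and dendritic cell markers past the filter lay lower in knockout at 24 h, beside Il4ra and Klf4. Over all genes past the filter, 49.0% were below 0 at 24 h and 49.4% at 12 h, and 3.5% were lower by 1.5-fold at 24 h. Of 9 stromal markers 7 passed the filter, and all 7 had a difference below 0 at 24 h and at 12 h, with medians of -0.86 and -0.56. The mean of the log2 levels of the 9 genes was 4.55 in knockout and 5.07 in wild type at 24 h, and 4.23 in knockout and 4.68 in wild type at 12 h. Klf4 and Fn1 are expressed by stromal cells as well, and the part of stromal RNA in their values was not tested. Of the 10 macrophage markers 8 were below 0 at 24 h and 4 at 12 h, with medians of -0.27 and 0.01, and Cx3cr1 at -1.20 and Itgam at -0.72 were past 1.5-fold at 24 h. Of 10 dendritic cell markers 6 passed the filter. Their median was -0.25 at 24 h (5 of 6 below 0) and 0.10 at 12 h (2 of 6 below 0). In each array 4 lay above the receptor genes, and Cd209a, Itgax and H2-Ab1 did so in all 4 arrays. The other was Siglech, or Xcr1 in wild type at 24 h. Flt3 and Zbtb46 were below the filter, with at most 2.55 and 2.35 in any array. H2-Ab1, an MHC class II chain that macrophages express too, was at 7.66 in knockout and 8.53 in wild type at 24 h, a difference of -0.87. Of 5 eosinophil markers 2 passed the filter, with 1 below and 1 above 0 at 24 h. Ccr3, a chemokine receptor, was at 5.93 in knockout and 6.76 in wild type at 24 h, a difference of -0.83. Siglecf differed by 0.07, and the granule protein genes Epx and Prg2 were at background. Of 8 T cell markers 3 passed the filter, with a median of 0.05 at 24 h (1 below 0, 2 above). Cd4 lay above the receptor genes in all 4 arrays, but Cd8a and Gata3 were at background in each. Of 5 B cell markers 2 passed, with a median of -0.34 at 24 h (2 below 0). Pax5 was at background in all 4 arrays, and Cd79b lay above the receptor genes in wild type only. The T cell and B cell medians thus rest at least partly on background values. The part of any cells of the types named here in the values of Il4ra and Klf4 was not tested. In bulk RNA, fewer cells of a type and less RNA per cell cannot be told apart.

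Between 12 h and 24 h, Klf4, Tgm2 and Arg2 were lower at the later time in both genotypes, and Il4ra, Irf4 and Clec10a were higher at 24 h by more than 1.5-fold in wild type and by less than that in knockout. Time differences are given within a genotype as 24 h over 12 h on the log2 scale, and since no array without fatty acids was analysed here, time in culture and fatty acid loading cannot be told apart. In knockout 2 of the 7 genes were lower and 0 higher by 1.5-fold, where 3.24% of all genes were lower and 3.05% higher. In wild type 1 was lower and 3 were higher, where 4.01% of all genes were lower and 4.73% higher.

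Klf4 had a time difference of -0.84 in knockout and -0.44 in wild type. Tgm2 had -0.71 in knockout and -0.48 in wild type. Arg2 had -0.58 in knockout, just under 1.5-fold, and -0.72 in wild type, with both 24 h arrays within the central 95% of the receptor genes, so that the size of its difference is uncertain. For these 3 genes the 24 h arrays of both genotypes lay below the 12 h arrays of both genotypes. Arg1, at -0.15 in knockout and -0.24 in wild type, had the same order but differences well inside the central 95% of genes.

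Il4ra had a time difference of 0.17 in knockout and 0.69 in wild type. For Irf4 it was 0.09 in knockout and 0.65 in wild type, and for Clec10a 0.23 in knockout and 0.73 in wild type. In knockout none of these reached 1.5-fold. The change of the genotype difference from 12 h to 24 h was -0.51 for Il4ra, -0.56 for Irf4 and -0.50 for Clec10a, and 20.2%, 16.5% and 21.9% of the receptor genes changed by as much. With 1 array per group this change has no test. The stromal markers were higher at 24 h as well, with a median time difference of 0.51 in knockout (3 of 7 past 1.5-fold) and 0.68 in wild type (5 of 7). The macrophage markers had medians of 0.02 in knockout (6 of 10 above 0) and 0.26 in wild type (8 of 10). Of all genes past the filter 50.4% were above 0 in knockout and 49.1% in wild type. The part of stromal or macrophage markers in the 3 genes' values was not tested. Mrc1 was higher at 24 h by 2.39 in knockout and 3.19 in wild type, and Cd163 by 0.18 in knockout and 0.87 in wild type. Maf, a factor of macrophage differentiation in the list of alternative activation factors, was higher by 0.47 in knockout and 1.11 in wild type.

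**Figure D4:**
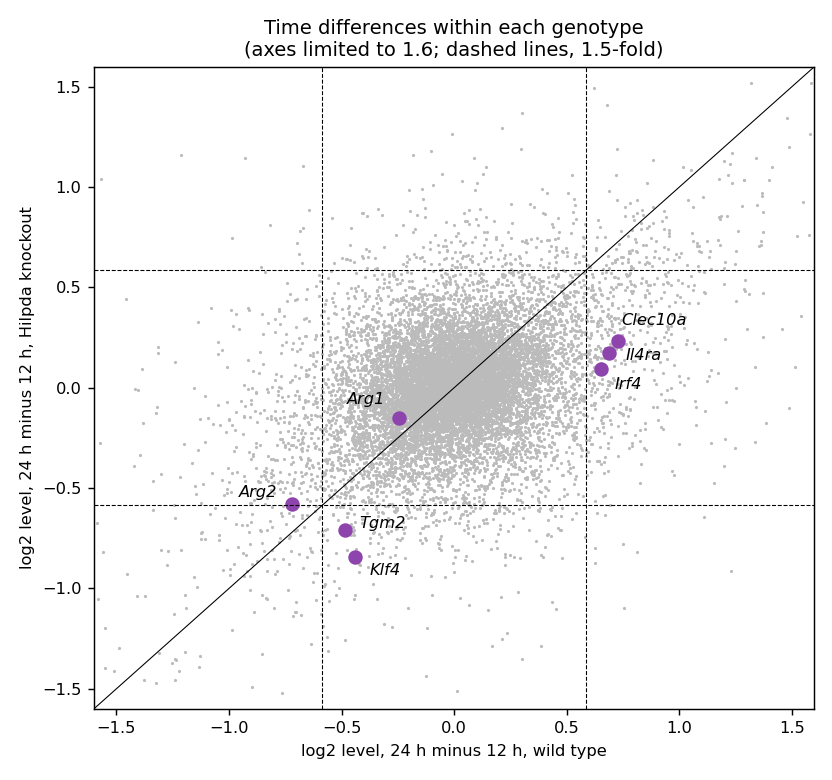
Time difference (log2 level, 24 h minus 12 h) in knockout on the vertical axis and in wild type on the horizontal axis for 13354 genes (grey) and the 7 alternative activation genes past the filter (purple). Dashed lines mark 1.5-fold, the diagonal marks equal values, and genes beyond the axes are not drawn. Il4ra, Irf4 and Clec10a lie right of the right dashed line (0.65 to 0.73 in wild type) and below the upper one, and Klf4 and Tgm2 lie below the lower dashed line (-0.84 and -0.71 in knockout).

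The single test the 4 arrays allow takes genotype and time as added terms over all genes, with 1 residual degree of freedom, in limma. With these 4 arrays the residual holds whatever the genotype difference gained or lost with time, so a difference seen at 1 time only counts as noise. For genotype, 0 of 13354 genes had an adjusted p under 0.05 (0%), and 870 (6.51%) had an unadjusted p under 0.05, among them 1 of the 7 genes. That was Klf4, with an effect of -0.51 ± 0.15 (SE) over both times and a limma adjusted p of 0.762, and it was lower in knockout at 2 of 2 times. Il4ra had an effect of -0.38 ± 0.17 with the same limma adjusted p of 0.762. For the other 5 genes the effects lay between -0.19 (Clec10a and Arg2) and 0.14 (Tgm2), with limma adjusted p from 0.810 to 0.997.

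For time, again 0 genes had an adjusted p under 0.05 (0%) in the same limma fit, and 1763 (13.2%) had an unadjusted p under 0.05, among them 4 of the 7 genes. These were Arg2, lower at 24 h by -0.65 ± 0.12 (SE), Klf4, lower by -0.64 ± 0.15, Tgm2, lower by -0.60 ± 0.12, and Clec10a, higher by 0.48 ± 0.16. Their limma adjusted p-values were 0.191 for Arg2, 0.225 for Klf4, 0.217 for Tgm2 and 0.347 for Clec10a, and each had the same direction in 2 of 2 genotypes. The Arg2 effect rests on 24 h values within the background signal. For Tgm2 the adjusted p was 0.0102 when the limma variance prior followed the signal level, within a range of 0.0102 to 0.343 over the settings tried.

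Klf4 was the 1 gene of the 7 whose 4 values spanned more than 1.0 on the log2 scale, and genes were ranked by how closely their profile followed it. The measure was the root mean square difference over the 4 arrays after each gene was centred on its own mean, among 11989 genes. These were the genes past the filter without those named as clones, predicted genes, olfactory receptors, microRNAs or small RNAs. The nearest were Stk35os1, a non-coding transcript by its name, at 0.0400, Oas1g, of the oligoadenylate synthetase family, at 0.0875, and the zinc-finger gene Zfp691, at 0.0879. Only 4 genes lay within 0.1 of Klf4. For Il4ra, looked at after the values were seen, the nearest was Il10ra, the receptor chain of interleukin 10, at 0.0140, with 8.72 in knockout and 9.33 in wild type at 24 h and 8.54 in knockout and 8.68 in wild type at 12 h. Within 0.1 of Il4ra lay 87 of the 11989 genes.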

How the data were processed

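Expression was measured with 1 Affymetrix array per group on pooled RNA. The deposited table holds 1 log2 value per probe set and array. RMA is the method named per the submitters' processing notes, with no version. It removes background, brings the arrays to 1 distribution and combines probes, so a general rise or fall of RNA is lost. The log2 scale was read from the values. No source here names the authors' annotation. Of 41345 probe sets, 23521 carried 1 symbol in the platform annotation. For a gene with several, the brightest was taken, and 13354 genes at or above the 40th percentile of mean level were kept.

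Differences between arrays were computed without a test, with 1.5-fold (0.585 on the log2 scale) as the size called. limma 3.58.1 (R 4.3.3) was fitted over all genes kept, with Benjamini-Hochberg adjustment, and the steps were tested on simulated data. Arrays give no counts, so their number limits the precision.

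The members, the 11 pathway lists, the 9 marker lists and the tests were chosen with earlier results of these data known. The rule named all 10 genes, up to 4 genes of each list past 1.5-fold between genotypes, set defining genes, and, for members spanning 1.0 or more, the 3 nearest profiles. Other list members were named after their values were seen. Alternatives were other level filters, fold rules, median centring, quantile normalization, loess, the mean over probe sets and a variance trend. Promoters came from RefSeq and were matched by symbol.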

Additional observations from a re-analysis of the deposited data

Results flagged for a closer look

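With 1 array per group, a genotype difference that points in opposite directions at the 2 times was met by 5 of the 10 genes, and none of these was tested. Among all 22180 genes 48.3% met it too, so the count says nothing particular of the 10. The difference at 24 h minus that at 12 h was -0.915 for Mgl2, -0.556 for Irf4, -0.495 for Clec10a, 0.407 for Retnla and 0.0920 for Arg1. Mgl2 and Retnla lay within the background signal in all 4 arrays, and Irf4 did in wild type at 12 h. For Arg1 the differences were 0.05 at 24 h and -0.04 at 12 h. Of the receptor genes taken as background, 3.13% changed by as much as Mgl2 and 78.9% by as much as Arg1.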

How the results depend on the processing

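Of 228 values of single members recomputed under the alternatives, 227 kept their direction and moved by less than the SD of the receptor genes or stayed on the same side of the limma threshold. This count overstates the stability. Each member has 1 probe set, so the other level filters and the mean over probe sets leave its differences and effect sizes unchanged by construction. Only the scaling alternatives could move these. The exception was the time effect of Tgm2, which passed the threshold with an intensity trend in the variance prior, where 1 of the 7 genes did. Over the scaling alternatives the genotype difference at 24 h ranged from -0.73 to -0.68 for Klf4 and from -0.65 to -0.60 for Il4ra. At 2-fold 0 of the 7 genes were past it in the genotype difference at 24 h (0.771% of all genes) and in the time differences of knockout (1.12%) and wild type (1.95%). At 1.3-fold 1 of 7 was past it in the genotype difference at 12 h (9.89% of all genes), 3 at 24 h (17.1%), and 3 and 6 in the time differences of knockout (16.8%) and wild type (20.4%). With the filter at the 60th percentile (4.20) 3 members were left, and the time difference in wild type had 1 past 1.5-fold in place of 4, since fewer genes were tested. Among all genes the limma time effect called 0 in the main setting, 114 with that filter and 539 with the trend, and the genotype effect called 0 in every setting. No pairing of replicates was possible because each group had 1 pooled array, and the limma fit compared the genotypes within each time through the time term. Leaving out an array left no residual degree of freedom. Signal limits Mgl2, Chil3 and Retnla, which never left the background.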
